A study of Homo sapiens with 4 samples.

Results

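The transforming growth factor beta (TGF-beta) pathway was followed through 40 genes in A549, a human lung adenocarcinoma cell line, with and without knockdown of RBM4, an RNA-binding protein that acts in splicing and translation. The genes were chosen by name as a pathway module after earlier results of these same data, namely their A549 levels and differences, had been seen. Their differences are therefore a description of 2 libraries and were not tested. All 40 were found by symbol among the 19732 symbols of the A549 table, and all were also listed in the H1299 table. The series holds 4 samples, an RBM4 knockdown and a control culture of A549 and the same pair of H1299, another human lung cancer line, with 1 library per group. H1299 was not analysed here, because the 3 value columns of its table carry names that match no sample label. The labels mark the knockdown libraries with "sh" but give neither the sequence used nor what the control received, and each line was grown in medium with fetal bovine serum. The A549 column with the bare name of the line was read as the control and the column with an added number as the knockdown, so each direction below rests on that reading of the names.

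TGF-beta, activins and bone morphogenetic proteins (BMPs) are secreted dimers of one protein superfamily. TGF-beta leaves the cell in a latent complex held by latent TGF-beta binding proteins (LTBPs), and once released it joins type II and type I receptor kinases. The type I kinase phosphorylates receptor SMADs (SMAD2 and SMAD3 for TGF-beta and activin, SMAD1 and SMAD5 for BMPs), which enter the nucleus with SMAD4, and targets such as SMAD7, SKIL and PMEPA1 then dampen the signal. In lung epithelial lines the pathway is known for growth arrest, matrix production and a shift towards mesenchymal traits.

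Values are FPKM, a fragment level scaled for transcript length and for the size of the library, summed over the transcripts of a gene. A difference is log2 of (knockdown FPKM + 1) over (control FPKM + 1), and a gene is counted as higher or lower where that ratio is at least 2-fold. RBM4 itself had 30.6 FPKM in the knockdown library and 59.4 FPKM in the control library (log2 difference -0.93). The summed FPKM was 622366 in the knockdown library and 671529 in the control library, and the mitochondrial genome held 21.7% of it in the knockdown library and 18.6% in the control library. Read counts are not part of the table, so the depth is unknown. Of 15 epithelial genes, 11 reached 1 FPKM, of which 3 were at least 2-fold higher and 1 lower. Of all genes that reached 1 FPKM in either library, 4.96% were higher and 2.25% lower by that measure. The epithelial list sum was 4414 FPKM in the knockdown library and 5517 FPKM in the control library. The lower epithelial gene was the keratin gene KRT18, with 912 FPKM in the knockdown library and 1853 FPKM in the control library. Its difference of -1.02 fell short of 2-fold once both libraries had the same total. KRT7, the most abundant epithelial gene in both libraries, had 2446 FPKM in the knockdown library and 1880 FPKM in the control library. In all, 7 of the 11 lay above their control levels and 4 below. The higher epithelial genes were CLDN4, KRT19 and CLDN3. Of these, CLDN4 had 22.3 FPKM in the knockdown library and 0.57 FPKM, below the filter, in the control library. Of 19 alveolar and airway genes, 5 reached 1 FPKM and none differed by 2-fold, with a list sum of 262 FPKM in the knockdown library and 291 FPKM in the control library. CAV1 made up most of that sum. LPCAT1 had 25.4 FPKM in the knockdown library and 22.6 FPKM in the control library, and ABCA3 had 11.9 and 9.69 FPKM in the same order. TP63 (2.11 and 1.52 FPKM) and AGER (0.91 and 1.10 FPKM) were the others that reached 1 FPKM. The surfactant gene SFTPB, the lung transcription factor gene NKX2-1 and the club cell gene SCGB1A1 were listed at 0 in both libraries. Of 13 fibroblast genes, 3 reached 1 FPKM, with a list sum of 46.4 FPKM in the knockdown library and 22.7 FPKM in the control library. THY1 had 25.98 FPKM in the knockdown library and 5.73 FPKM in the control library, and COL1A1 had 9.47 FPKM in the knockdown library and 2.61 FPKM in the control library. TWIST2 went the other way, with 9.60 FPKM in the knockdown library and 13.98 FPKM in the control library. The defining members DCN and POSTN were listed at 0 in both libraries, and COL3A1 had 0.039 FPKM in the knockdown library and 0.027 FPKM in the control library. Of 9 endothelial genes, ESAM alone reached 1 FPKM (list sum 18.96 FPKM in knockdown, 3.04 FPKM in control), with VWF and KDR at 0 in both libraries. In all, 3 of the 9 were listed at 0 in the knockdown library and 8 in the control library. PECAM1 and CDH5 had 0.12 and 0.21 FPKM in the knockdown library and were listed at 0 in the control library. Of 16 blood and immune genes, CD14 and CD68 reached 1 FPKM (list sum 31.6 FPKM in knockdown, 9.62 FPKM in control), with CD3E and LYZ at 0 in both. The part of these marker genes in the differences below was not tested.

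The LTBP family genes LTBP2, LTBP3 and LTBP4, the antagonist gene GREM1 and the type I receptor gene TGFBR1 were higher in the knockdown library. So were the feedback gene PMEPA1 and the target genes TGFBI, TGFB1I1 and BHLHE40. No SMAD gene differed by 2-fold, and the activin subunit gene INHBB was lower. Of the 40 genes, 9 were higher by at least 2-fold and 1 was lower. Among all 12230 genes at 1 FPKM or more in either library, 4.96% were higher and 2.25% were lower by that measure. The contrast that gave these values is also the one with which the genes were chosen, so nothing is read from the distance between these shares. A total of 37 of the 40 genes reached 1 FPKM in at least 1 library. FST reached it in the knockdown library alone and so could only lie above its control. The 3 genes below it in both libraries were TGFB3, INHBA and ENG. The median difference was 0.52 over the 37 genes and 0.49 over all 40, against -0.04 over all genes that reached 1 FPKM. In bulk RNA, a difference in every cell and a difference in a fraction of the cells cannot be told apart.

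**Figure D1:**
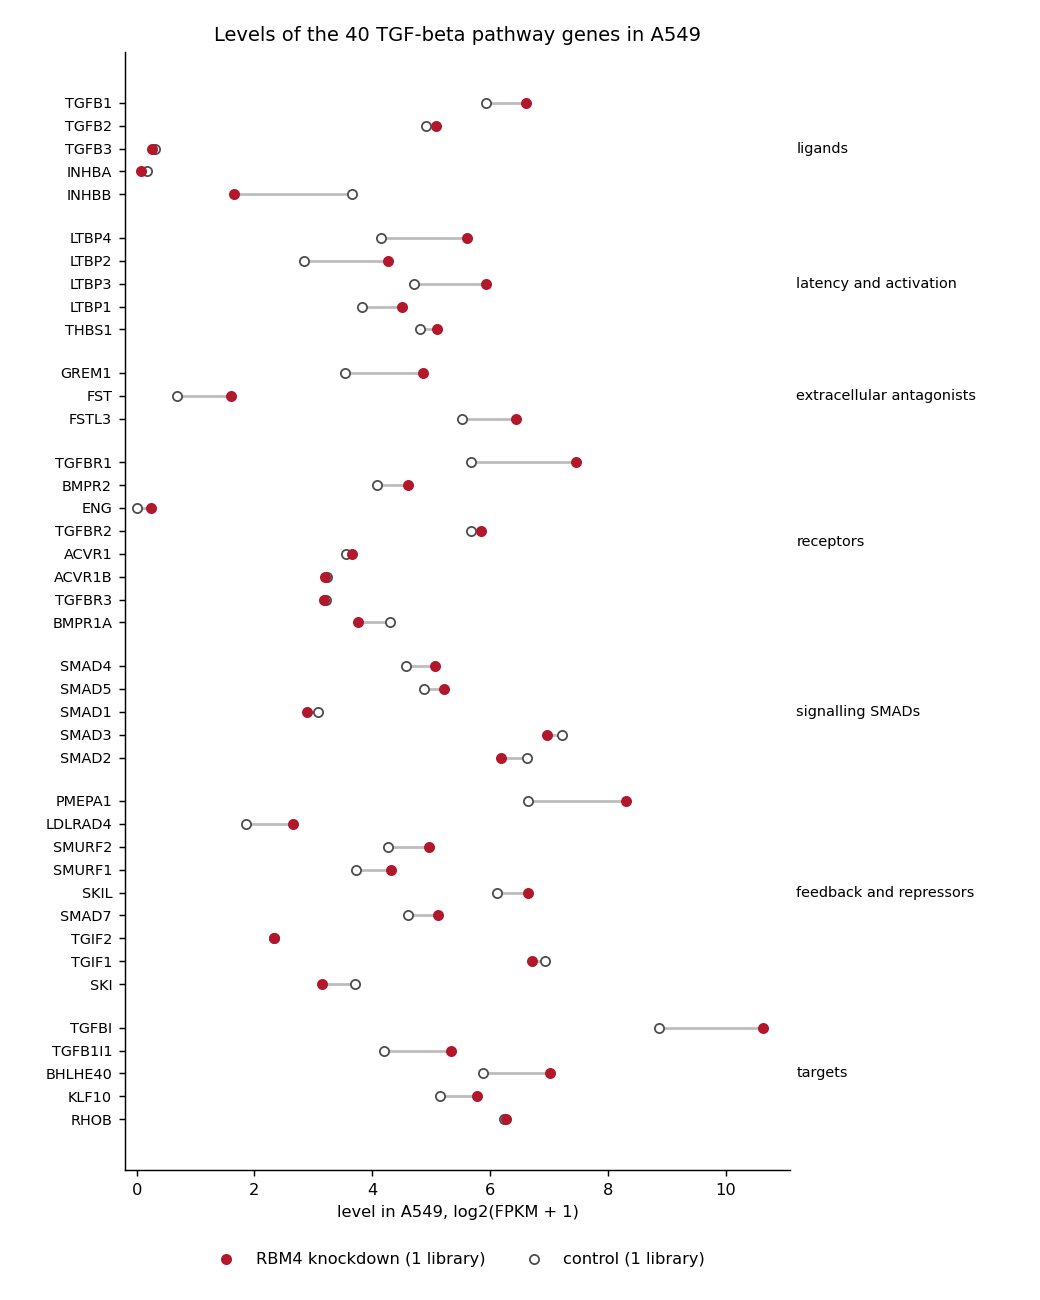
Level of each of the 40 genes in A549 as log2(FPKM + 1), by role, with the RBM4 knockdown library as filled points and the control library as open points (1 library each). TGFBI has the highest level in both libraries, and the widest gaps are those of INHBB, TGFBR1, TGFBI and PMEPA1.

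Among the ligand genes, TGFB1 was the most abundant and INHBB the one that differed most. TGFB1 (ENSG00000105329, chromosome 19, 41301587 to 41353911, minus strand, hg38) had 96.8 FPKM in the knockdown library and 60.2 FPKM in the control library (log2 difference 0.68). TGFB2 had 33.1 FPKM in the knockdown library and 29.3 FPKM in the control library (0.17). TGFB3 was near 0, at 0.20 FPKM in the knockdown library and 0.24 FPKM in the control library. As shares of the summed FPKM of the 3 ligand genes, which is a comparison of levels per length, TGFB1 made up 74.4% in the knockdown library and 67.1% in the control library. TGFB2 made up 25.4% in the knockdown library and 32.6% in the control library. INHBB (ENSG00000163083, chromosome 2, 120346143 to 120351808, plus strand), which encodes the beta B subunit of activin and inhibin, had 2.16 FPKM in the knockdown library and 11.6 FPKM in the control library. Its difference of -2.00 was the lowest of the 40 genes, with only 0.12% of all genes below it. INHBA, the beta A subunit, was at 0.06 FPKM in the knockdown library and 0.13 FPKM in the control library. These levels leave INHBB as the more abundant activin subunit gene in both libraries.

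All 4 LTBP genes, a family of matrix proteins of which LTBP1, LTBP3 and LTBP4 bind latent TGF-beta, were above their control levels. LTBP4 had 47.8 FPKM in the knockdown library and 16.6 FPKM in the control library (1.47). LTBP2 had 18.3 FPKM in the knockdown library and 6.16 FPKM in the control library (1.43). LTBP3 had 59.7 FPKM in the knockdown library and 25.3 FPKM in the control library (1.21). LTBP1 did not reach 2-fold, with 21.6 FPKM in the knockdown library and 13.2 FPKM in the control library (0.67). Summed over the 4 genes, the level was 147 FPKM in the knockdown library and 61.3 FPKM in the control library, a ratio of 2.41. LTBP3 and LTBP4 together held most of that sum in both libraries, at 40.5% and 32.4% in the knockdown library and 41.3% and 27.2% in the control library. THBS1, whose product thrombospondin-1 can activate latent TGF-beta, differed least in this group, with 33.3 FPKM in the knockdown library and 27.0 FPKM in the control library (0.30).

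The secreted antagonists were each above the control level. GREM1, which encodes the BMP antagonist gremlin, had 28.1 FPKM in the knockdown library and 10.6 FPKM in the control library (1.33). FSTL3, an activin-binding follistatin-like protein, had 85.97 FPKM in the knockdown library and 44.9 FPKM in the control library (0.92). FST, follistatin itself, was low, at 2.05 FPKM in the knockdown library and 0.61 FPKM in the control library (0.92). FST and FSTL3 lay just outside the 2-fold limit, and BHLHE40, at 1.13, was the lowest gene inside it. FSTL3 passed the limit when both libraries were given the same total (1.03), and FST passed it with a pseudocount of 0.5 FPKM (1.20). The added 1 FPKM shrinks the difference of low genes: without it, the ratio of knockdown to control was 3.36 for FST.

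Of the receptors, TGFBR1 stood apart. TGFBR1 (ENSG00000106799, chromosome 9, 99104038 to 99154192, plus strand), the type I TGF-beta receptor kinase, had 175.7 FPKM in the knockdown library and 50.0 FPKM in the control library. Its difference of 1.79 was the highest of the 40 genes, and 0.96% of all genes had a higher one. TGFBR2, the type II partner, had 56.8 FPKM in the knockdown library and 50.3 FPKM in the control library (0.17). Summed over transcripts, the pair was thus at nearly equal levels in the control library, while in the knockdown library TGFBR1 was well above TGFBR2. By the leading transcript alone, TGFBR1 had 58.8 FPKM in the knockdown library and 17.9 FPKM in the control library. The leading TGFBR2 transcript had 45.3 FPKM in the knockdown library and 38.1 FPKM in the control library, so the control levels were not equal on that measure. TGFBR1 made up 59.3% of the summed FPKM of the 8 receptor genes in the knockdown library and 30.8% in the control library. BMPR2, the type II BMP receptor, had 23.3 FPKM in the knockdown library and 15.97 FPKM in the control library (0.52). BMPR1A, a type I BMP receptor, was on the other side of 0, with 12.6 FPKM in the knockdown library and 18.8 FPKM in the control library (-0.55). The activin and BMP type I receptor genes ACVR1 (0.10) and ACVR1B (-0.02) and the co-receptor gene TGFBR3 (-0.03) lay close to 0, and the last 2 changed sign under each of the 3 other scalings. ENG, the co-receptor endoglin, had 0.18 FPKM in the knockdown library and was listed at 0 in the control library.

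**Figure D2:**
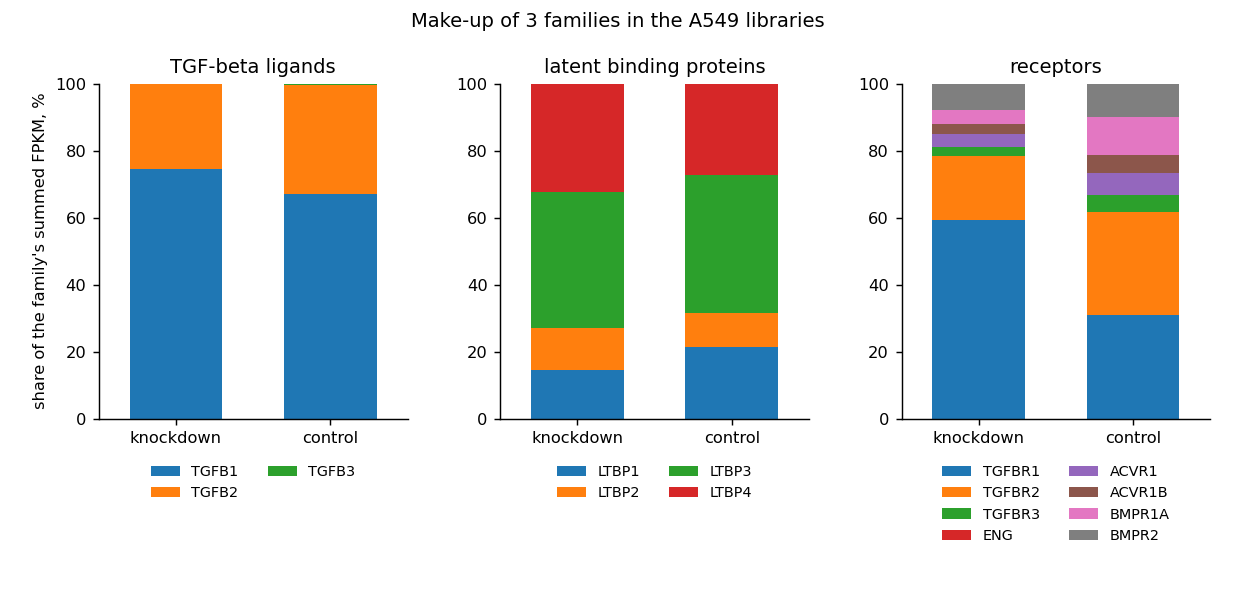
Shares of the summed FPKM of the TGF-beta ligand genes, the LTBP genes and the 8 receptor genes, with the knockdown library on the left and the control library on the right of each panel (1 library each, vertical axis in percent). TGFBR1 takes 59.3% of the receptor sum in the knockdown library and 30.8% in the control library, while LTBP3 has nearly equal shares of the LTBP sum in both.

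None of the 5 signalling SMAD genes differed by 2-fold. SMAD3 had 124 FPKM in the knockdown library and 149 FPKM in the control library (-0.26), and SMAD2 had 71.97 FPKM in the knockdown library and 98.4 FPKM in the control library (-0.45). These are the receptor SMADs of TGF-beta and activin, and their summed level was 196 FPKM in the knockdown library and 247 FPKM in the control library, a ratio of 0.79. The BMP-type pair differed less in its sum, at 42.8 FPKM in the knockdown library and 35.8 FPKM in the control library, of which SMAD5 held 85.0% in the knockdown library and 79.2% in the control library. SMAD5 had 36.3 FPKM in the knockdown library and 28.4 FPKM in the control library (0.35), while SMAD1 had 6.42 FPKM in the knockdown library and 7.46 FPKM in the control library (-0.19). SMAD4, the partner shared by both arms, had 32.4 FPKM in the knockdown library and 22.8 FPKM in the control library (0.49). That direction turned round when only the most abundant transcript of each library was used (-0.43), and SMAD4 shares exons with another annotated gene on the same strand.

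Feedback genes were mostly above their control levels, led by PMEPA1. PMEPA1 (ENSG00000124225, chromosome 20, 57648392 to 57711536, minus strand), a TGF-beta target whose membrane protein sequesters receptor SMADs, had 317 FPKM in the knockdown library and 99.5 FPKM in the control library (1.66). LDLRAD4, a related membrane inhibitor, was low, with 5.33 FPKM in the knockdown library and 2.62 FPKM in the control library (0.80, or a ratio of 2.03 without the pseudocount). SMAD7, the inhibitory SMAD, had 33.6 FPKM in the knockdown library and 23.4 FPKM in the control library (0.50). The ubiquitin ligase genes SMURF2 and SMURF1, whose products take part in receptor turnover, had differences of 0.69 and 0.60. SKIL, the SMAD co-repressor SnoN and itself a target, had 99.1 FPKM in the knockdown library and 68.8 FPKM in the control library (0.52). Its relative SKI had 7.85 FPKM in the knockdown library and 12.1 FPKM in the control library (-0.57). The homeodomain co-repressor gene TGIF1 (-0.22) turned round with the most abundant transcript alone (0.52), and TGIF2 (-0.01) changed sign under each of the 3 other scalings. Of the 9 genes, 6 lay above the control level, where 5704 of the 12230 genes at 1 FPKM or more also lay above theirs.

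Target genes outside the feedback loop included the most abundant of the 40. TGFBI (ENSG00000120708, chromosome 5, 136028895 to 136063818, plus strand), a secreted matrix adhesion protein, had 1584 FPKM in the knockdown library and 469 FPKM in the control library (1.75). TGFB1I1, the focal adhesion adaptor Hic-5, had 39.5 FPKM in the knockdown library and 17.3 FPKM in the control library (1.14). BHLHE40, a transcriptional repressor, had 129 FPKM in the knockdown library and 58.2 FPKM in the control library (1.13). KLF10, a TGF-beta inducible zinc finger repressor, had 53.6 FPKM in the knockdown library and 34.4 FPKM in the control library (0.63), short of 2-fold. RHOB, a small GTPase gene, had 76.0 FPKM in the knockdown library and 74.5 FPKM in the control library (0.03).

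**Figure D3:**
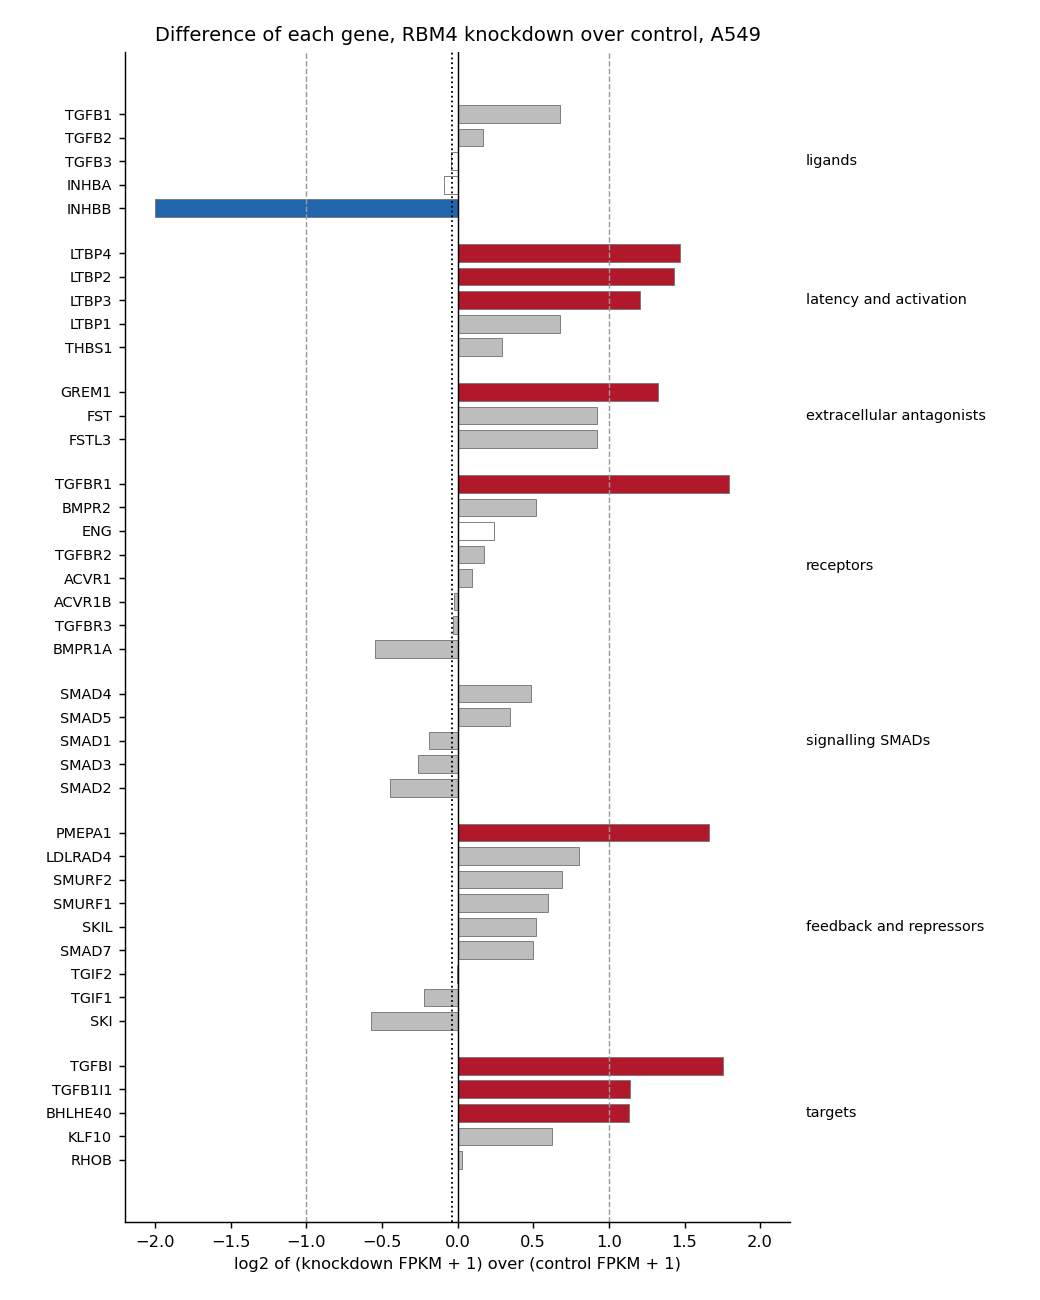
Difference of each gene as log2 of (knockdown FPKM + 1) over (control FPKM + 1), by role, from 1 library per group. Red bars are at least 2-fold higher in the knockdown library, the blue bar is at least 2-fold lower, grey bars are within 2-fold, white bars are genes below 1 FPKM in both libraries, dashed lines mark 2-fold and the dotted line marks the median of all genes (-0.04). LTBP2, LTBP3, LTBP4 and the targets TGFBI, TGFB1I1 and BHLHE40 reach past the dashed line, LTBP1, KLF10 and RHOB do not, and no signalling SMAD does.

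The medians by role are given side by side, and their order changed with the settings. Over the genes that reached 1 FPKM, the median difference was 1.21 for the 5 latency and activation genes and 1.13 for the 5 target genes, each with 3 genes at least 2-fold higher. It was 0.92 for the 3 antagonists and 0.52 for the 9 feedback genes and repressors, each with 1. The antagonist median is the value of FST, which reached 1 FPKM in the knockdown library alone and so could only be higher there. It was 0.17 for the 3 measured ligand genes, 0.10 for the 7 measured receptor genes and -0.19 for the 5 signalling SMADs. Here 1 ligand gene was at least 2-fold lower, 1 receptor gene was at least 2-fold higher and no signalling SMAD was either. The shares over all genes that reached 1 FPKM in either library were 4.96% higher and 2.25% lower, and their median was -0.04. With all 5 ligand genes counted, the ligand median was -0.04. With a pseudocount of 0.1 FPKM the antagonist median (1.40) lay above that of latency and activation (1.24), and with the highest transcript alone so did the target median (1.13, against 1.11). The groups hold 3 to 9 genes each, and the differences between their medians were not tested.

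Transcript levels show whether a gene's difference was carried by one transcript or by several. The A549 table lists 224 transcripts of the 40 genes. All 6 TGFBR1 transcripts that reached 1 FPKM in either library were at least 2-fold higher, from ENST00000547314, with 30.0 FPKM in the knockdown library and 10.5 FPKM in the control library, to ENST00000374994, with 28.0 FPKM in the knockdown library and 4.53 FPKM in the control library. The leading TGFBR1 transcript, ENST00000552516, held 33.5% of the gene's FPKM in the knockdown library and 35.8% in the control library. Of 6 PMEPA1 transcripts, 5 were at least 2-fold higher. Among them ENST00000395816 had 56.0 FPKM in the knockdown library and 5.35 FPKM in the control library, and its share of the gene was 17.6% in the knockdown library and 5.38% in the control library. One transcript, ENST00000442011, held 90.8% of TGFBI in the knockdown library and 90.2% in the control library. For LTBP4, the leading transcript ENST00000204005 had 15.5 FPKM in the knockdown library and 5.04 FPKM in the control library, and ENST00000308370 had 10.7 FPKM in the knockdown library and 2.31 FPKM in the control library. A further 3 LTBP4 transcripts reached 1 FPKM in the knockdown library alone and so could only be higher there.

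Across the 33 genes at 5 FPKM or more in both libraries, 28 had the same leading transcript in both, and the median of the largest shift in share was 5.30 percentage points. A shift of 20 points or more was found in 2 genes, SMAD1 and SMAD4. In SMAD4, ENST00000591914 held 23.1% of the gene's FPKM in the knockdown library and 47.1% in the control library. SMAD4 transcripts ENST00000589941 and ENST00000590061 had 6.58 and 6.04 FPKM in the knockdown library and were both listed at 0 in the control library. In SMAD1 the largest shift was that of ENST00000507594, with 34.2% in the knockdown library and 0 in the control library. ENST00000394092 held 39.3% in the knockdown library and 5.33% in the control library, and ENST00000514831 held 0 and 32.3% in the same order. ENST00000302085 held 26.5% in the knockdown library and 50.0% in the control library. These SMAD1 transcripts were all at levels under 4 FPKM. How reads were divided among transcripts is not known, and no error can be attached to these shares.

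**Figure D4:**
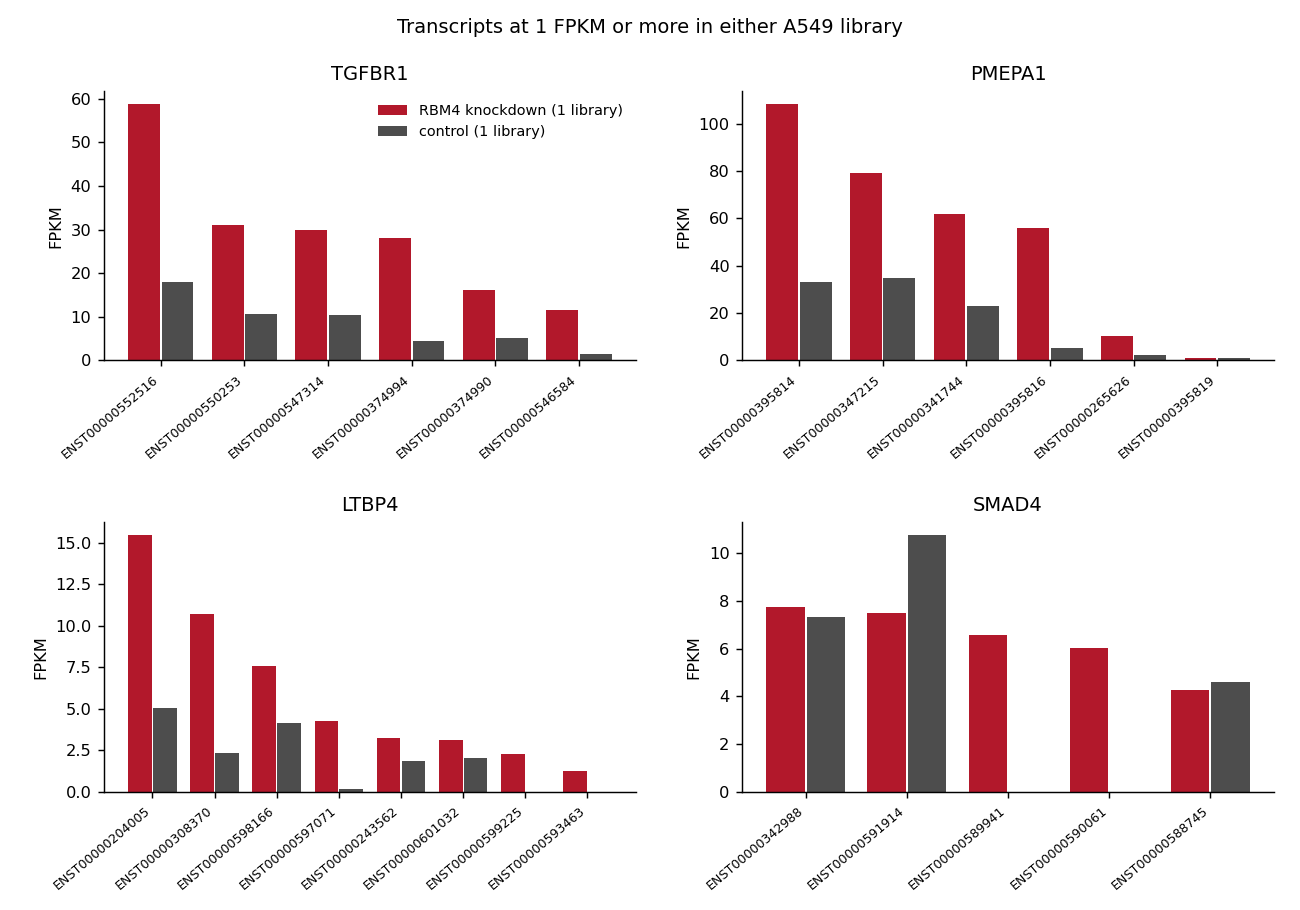
FPKM of the transcripts of TGFBR1, PMEPA1, LTBP4 and SMAD4 that reached 1 FPKM in either A549 library, with the knockdown library in red on the left of each pair and the control library in grey on the right (1 library each). All 6 TGFBR1 transcripts are higher in the knockdown library, while the SMAD4 transcripts differ in direction.

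Promoter windows were examined for the genes that differed by 2-fold, because SMAD complexes bind short DNA boxes, often beside AP-1 sites. Windows of the 250 bases before a RefSeq transcription start (GRCh38.p14) were matched by symbol for 38 of the 40 genes, in 86 windows. Of the genes that differed by 2-fold, 4 had a single window. These are shown 5′ to 3′, with matches to the motifs CAGAC (the short SMAD box), GGCGCC (a GC-rich SMAD site), GTCTAGAC (the palindromic SMAD box) and TGANTCA (AP-1), searched on both strands, in capitals. The LTBP2 window lies at chr14:74612238-74612487 on the minus strand, and TGFBI at chr5:136028738-136028987, BHLHE40 at chr3:4979187-4979436 and INHBB at chr2:120345886-120346135 on the plus strand. The GENCODE gene positions used elsewhere here place some starts differently. By them the whole BHLHE40 window, with its CAGAC match, lies inside the gene, which starts at 4979116. The TGFBI and LTBP2 windows lie partly inside their genes, which start at 136028895 and 74612378. Only the INHBB window ends before the gene start, at 120346143.
LTBP2: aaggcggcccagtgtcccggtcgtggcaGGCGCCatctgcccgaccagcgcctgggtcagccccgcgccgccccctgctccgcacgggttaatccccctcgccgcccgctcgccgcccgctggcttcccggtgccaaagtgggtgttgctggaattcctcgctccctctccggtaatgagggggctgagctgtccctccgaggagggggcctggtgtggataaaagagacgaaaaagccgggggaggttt
TGFBI: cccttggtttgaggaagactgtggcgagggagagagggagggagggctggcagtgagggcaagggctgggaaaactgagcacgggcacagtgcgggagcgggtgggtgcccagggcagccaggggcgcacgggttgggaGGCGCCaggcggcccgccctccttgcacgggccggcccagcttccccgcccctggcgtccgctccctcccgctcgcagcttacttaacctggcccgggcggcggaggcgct
BHLHE40: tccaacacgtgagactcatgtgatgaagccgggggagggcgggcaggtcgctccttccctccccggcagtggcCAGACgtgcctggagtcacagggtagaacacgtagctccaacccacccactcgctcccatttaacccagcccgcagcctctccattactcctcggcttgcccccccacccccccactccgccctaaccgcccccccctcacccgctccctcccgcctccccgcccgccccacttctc
INHBB: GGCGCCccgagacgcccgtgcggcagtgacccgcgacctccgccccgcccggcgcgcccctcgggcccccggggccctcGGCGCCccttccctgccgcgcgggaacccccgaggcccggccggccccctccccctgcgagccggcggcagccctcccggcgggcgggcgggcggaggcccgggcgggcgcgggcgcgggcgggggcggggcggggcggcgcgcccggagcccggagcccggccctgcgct

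The 3 windows of genes that were higher held 1 match each, GGCGCC in LTBP2 and TGFBI and CAGAC in BHLHE40, while the window of INHBB, which was lower, held 2 matches to the GC-rich site. The short box CAGAC occurred in 40.7% of the 86 windows of the pathway genes and in 38.0% of all 35116 windows. The GC-rich site occurred in 22.1% of the windows of the pathway genes and in 16.4% of all windows. The AP-1 motif occurred in 5.81% of the windows of the pathway genes and in 6.57% of all windows. The palindromic box occurred in 0 of the 86 windows and in 0.182% of all windows. A match is a run of letters and not a measured binding site.

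Other genes of the pathway were taken from lists written with earlier results known. In the list of 31 textbook TGF-beta targets, 28 reached 1 FPKM, and 21 of these were at least 2-fold higher and none lower, with a median of 1.68. Of all genes that reached 1 FPKM in either library, 4.96% were higher and 2.25% lower by that measure. SNAI2, itself among the 21, reached 1 FPKM in the knockdown library alone and so could only be higher there. TGM2 and ITGAV, both among the 21, are also on the list of activation genes. A list written with these results known is no independent evidence of its direction. Among its highest members was TAGLN, an actin-binding protein gene, with 186 FPKM in the knockdown library and 8.20 FPKM in the control library (4.34). NEDD9 (0.34) and DLC1 (-0.00, above 0 under the 3 other scalings) differed least. BMP target genes lay on the other side: of 9 measured, 4 were at least 2-fold lower (3 once both libraries had the same total) and none higher. Of all genes, 2.25% were lower and 4.96% higher as reported. The median of the BMP targets was -0.62, and it became -0.20 without the filter and -1.06 with a filter of 5 FPKM. ATOH8 had 6.92 FPKM in the knockdown library and 20.5 FPKM in the control library (-1.44), and ID4 had 1.55 FPKM in the knockdown library and 5.80 FPKM in the control library (-1.41). MSX1 (0.75) and MSX2 (-0.08) were the highest of that list. BAMBI, whose value is the median of the BMP targets, is also on the list of other receptors. SMAD6 (-0.20) is also on the list of other SMADs and SMAD partners.

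Upstream of the receptors, 4 of 9 further activation and latency genes were at least 2-fold higher and none lower. Of all genes that reached 1 FPKM in either library, 4.96% were higher and 2.25% lower by that measure. The median of the 9 activation and latency genes, 0.85, is the value of ITGB6, an integrin gene that reached 1 FPKM in the knockdown library alone. This median was 0.20 without the filter and 1.61 with a filter of 5 FPKM. Of the 4 higher genes, FURIN, the protease that cleaves the TGF-beta precursor, had 67.4 FPKM in the knockdown library and 19.7 FPKM in the control library (1.72), and the transglutaminase gene TGM2 had 316 FPKM in the knockdown library and 72.9 FPKM in the control library (2.10). FBN2 (-0.34) and CTSD (-0.31) were lowest. Of 8 other measured genes in the ligand list, 1 was higher, BMP1, with 76.2 FPKM in the knockdown library and 24.6 FPKM in the control library (1.59). Despite its name BMP1 encodes a protease of matrix and latent-complex proteins. GDF15 (-0.94) and BMP4 (-0.92) were the lowest ligand genes and BMP6 (0.61) the next highest. Of 4 measured antagonists, 1 was higher, FSTL1, with 117 FPKM in the knockdown library and 40.8 FPKM in the control library (1.49), followed by BMPER (0.93), TWSG1 (0.19) and NBL1 (0.15). Neither the 5 other receptor genes, from RGMB (0.25) and ACVR2B (0.23) to BMPR1B (-0.18) and BAMBI (-0.62), nor the 16 other SMADs and SMAD partners held a gene past 2-fold. The SMAD list ran from FKBP1A (0.22) and USP15 (0.19) to STUB1 (-0.52) and NEDD4L (-0.87), a ubiquitin ligase gene, and its median of -0.06 became 0.05 once both libraries had the same total.

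**Figure D5:**
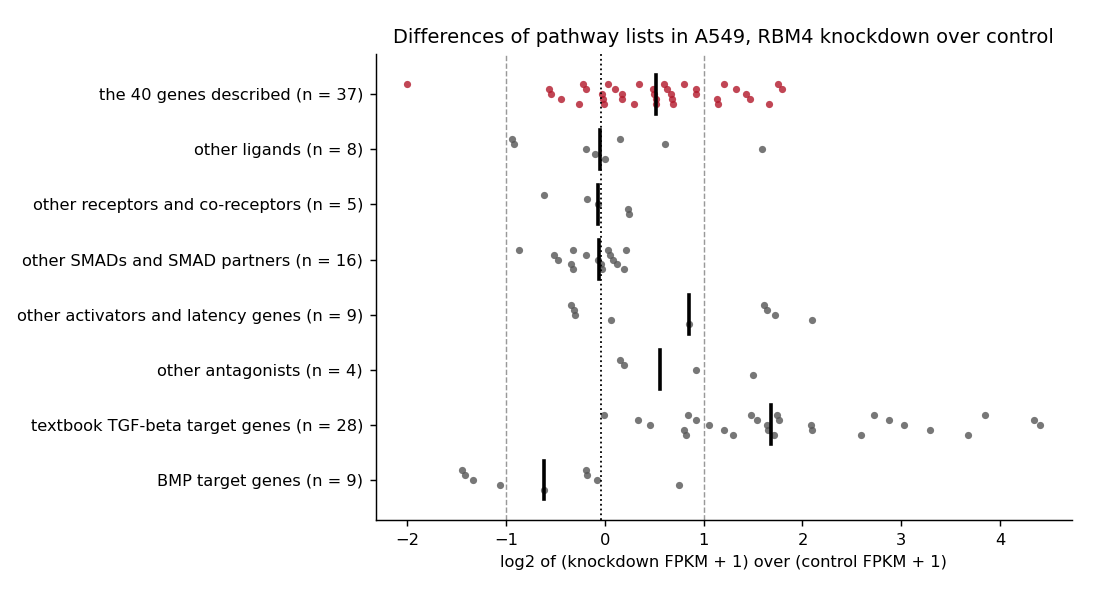
Differences (log2 of knockdown FPKM + 1 over control FPKM + 1, 1 library per group) of the 37 measured genes described here, in red, and of 7 other pathway lists, in grey, with each list's median as a black bar, 2-fold as dashed lines and the median of all genes as a dotted line. The textbook TGF-beta targets lie almost wholly to the right with a median of 1.68, and the BMP targets lie mostly to the left with a median of -0.62.

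Some levels are uncertain because exons of 19 of the 40 genes overlap another annotated gene, 16 of them on the opposite strand and 4 on the same strand, and the strand setting of the counting is not known. Among the genes past 2-fold, BHLHE40, PMEPA1, LTBP2, GREM1 and TGFB1I1 overlap non-coding or unclassified genes on the opposite strand, and TGFBR1, TGFBI, LTBP3, LTBP4 and INHBB overlap none. TGFB1 overlaps HNRNPUL1, which had 166 FPKM in the knockdown library and 224 FPKM in the control library. SMURF1 and SMURF2 overlap TRRAP (-0.05) and CEP95 (0.00). The part of these overlaps in the differences was not tested.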

How the data were processed

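Total RNA of A549 with RBM4 knockdown and of its control was compared, 1 library each. The deposited values are FPKM per protein-coding transcript, which the authors made from Trizol-extracted RNA and Illumina TruSeq libraries per the labels' protocols, and with CASAVA 1.8.2, TopHat and Cufflinks on hg38 per the submitters' processing notes. The sources used here do not give the role of each tool, the annotation or a strand setting. The H1299 table has 3 value columns that match no label and were not used.

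The FPKM of 79989 transcripts were added up by symbol. Differences used a pseudocount of 1 FPKM, genes at 1 FPKM or more in either library were kept for counts and medians over all genes, and at least 2-fold was counted. With 1 library per group no test was made and no error is given. The counting step was tested on simulated data. The genes and the 12 other lists were chosen with earlier results of these data known. The 40 genes are all named, and of each pathway list the 2 highest and 2 lowest, except 1 gene that is not reported here. Other marker genes were chosen as examples after their values were seen. Positions, transcripts and overlaps came from GENCODE release 29 (hg38), which held all 224 transcripts, and promoters from RefSeq. A planned comparison of ligand proteins was not made. Python 3.11.15, pandas 2.3.3, numpy 2.4.6 and matplotlib 3.10.9 were used.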

Additional observations from a re-analysis of the deposited data

How the results depend on the processing

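Under 8 alternatives (pseudocounts of 0.1 and 0.5 FPKM, no filter, a filter of 5 FPKM, 3 other scalings, and the highest transcript per symbol), all 10 genes past 2-fold stayed past it in the same direction, and 9 to 11 genes were higher and 1 lower. The median of the 3 antagonists crossed 2-fold with a pseudocount of 0.1 FPKM (1.40) or 0.5 FPKM (1.20), rescaling to the same total (1.03) and mitochondrial genes left out (1.08). As reported and at 0.5 FPKM, this median is the value of FST, which passed the filter through the knockdown library alone. The antagonist median was also past 2-fold with a filter of 5 FPKM (1.12) and the highest transcript (1.08). In those settings FST fell below the filter, so the median is that of FSTL3 and GREM1 alone. In an alternative chosen after seeing the data, leaving out genes with exon overlap gave 4 higher, fewer by construction. The ligand median was -0.04 without the filter, against 0.17 as reported, since this adds TGFB3 and INHBA. Over all genes, the median moved to 0.06 after rescaling and 0.11 with mitochondrial genes left out, where 82.2% of 2-fold genes were higher, against 68.8% as reported. The share of all genes that were higher was 8.05% with a pseudocount of 0.1 FPKM (985 higher and 418 lower, against 607 and 275 as reported). No paired analysis was possible because each group has 1 library, which also means that no library could be left out. The H1299 comparisons were not run. Without read counts, the precision of low genes such as FST, LDLRAD4 and SMAD1 is unknown.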

Other observations

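Transcripts of TGIF1 did not all lie on one side. The leading one, ENST00000400167, had 26.1 FPKM in the knockdown library and 17.96 FPKM in the control library, and its share of the gene was 25.2% in the knockdown library and 14.8% in the control library. By contrast ENST00000401449 had 3.54 FPKM in the knockdown library and 8.74 FPKM in the control library, so the small summed difference of this gene joins transcripts with opposite directions. In TGFB1I1, ENST00000394863 held 85.6% of the gene's FPKM in the knockdown library and 67.3% in the control library. Among SMAD2 transcripts, ENST00000356825 had 4.34 FPKM in the knockdown library and 10.1 FPKM in the control library, while ENST00000589877 had 10.6 FPKM in the knockdown library and 8.14 FPKM in the control library.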
